A study of Mus musculus with 6 samples.

Results

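Expression of 10 genes of uracil excision and base excision repair (BER) was measured by RNA-Seq in germinal center (GC) B cells and in resting (naive) B cells, both from mouse Peyer's patches. The genes were picked by name, with earlier results of these data known, and by role they are the glycosylases Ung, Smug1, Tdg, Mbd4 and Neil1, the abasic site endonucleases Apex1 and Apex2, and the downstream factors Xrcc1, Polb and Parp1. All 10 had a row among the 39179 genes of the data set. In GC B cells cytosine in DNA is deaminated to uracil. A glycosylase cuts the uracil base from the DNA backbone, an endonuclease nicks the abasic site that is left, and a polymerase and a ligase close the gap. The same uracil can instead be recognized as a mismatch by mismatch repair (MMR), and processing of either kind can be faithful or can leave a mutation, which is how antibody genes diversify in the GC.

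GC B cells were sorted as Fas+GL7+ B cells and naive B cells as Fas-GL7- B cells from the ileal Peyer's patches of female WT C57BL/6 mice aged 12 wk. Both groups were WT, and no deletion, transgene or treatment is named for either. Both populations had 3 replicates. A replicate pooled 5 mice, so that animal to animal variation was not measured. Values are TPM (transcripts per 1000000 transcripts), which state a gene's share of all transcripts in a pool, corrected for transcript length. A higher share of cells that use a gene and more of its RNA per cell cannot be told apart in such pools.

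The sort was checked with marker genes. All 6 GC B cell markers were higher in GC B cells. Fas, on which the cells were sorted, was at 108, 115 and 119 TPM in GC B cells and at 3.05, 3.59 and 3.03 TPM in naive B cells. Of 6 resting B cell markers, the 5 with a value were all lower in GC B cells. The B cell genes Cd79a, Cd79b, Ms4a1 and Pax5 were between 175 and 2402 TPM in every pool. Of 5 B cell markers, 1, Ms4a1, was higher and 4 were lower in GC B cells. Among the lower ones, Cd79a had means of 1077 TPM in the GC pools and 2349 TPM in the naive pools. Depth was estimated from steps between low values at 9700000 to 16100000 reads per pool, which is approximate, and correlations of log2 values were 0.963 to 0.972 within a population and 0.806 to 0.814 between populations.

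GC and naive B cells also differed in cell cycle genes and in traces of epithelium. The 10 cycling markers, such as Mki67 and Top2a, were all higher in GC B cells and summed to 1638 to 1687 TPM in the GC pools and to 62.8 to 68.6 TPM in the naive pools. The 10 epithelial markers summed to 47.0 to 101 TPM in the GC pools and to 138 to 183 TPM in the naive pools, and of the 9 tested 1 was higher and 5 were lower in GC B cells. The T cell genes Cd3d, Cd3e, Cd3g, Cd4 and Cd8a stayed between 0 and 1.83 TPM, and Lck, the 1 T cell marker that was tested and a gene that some B cells express too, had a mean of 131 TPM in the GC pools and of 65.5 TPM in the naive pools. The 6 myeloid markers summed to 13.9 to 15.8 TPM in the GC pools and to 8.93 to 14.1 TPM in the naive pools. Most of that sum was Cd68, with means of 13.1 TPM in the GC pools and 5.88 TPM in the naive pools, whereas Lyz2 (1.28 and 3.30 TPM), Itgam (0.106 and 1.02 TPM) and Adgre1 (0.0461 and 0.696 TPM) had the higher mean in the naive pools. The 4 plasma cell markers summed to 131 to 135 TPM in the GC pools and to 192 to 212 TPM in the naive pools. Most of that sum was Xbp1, with means of 104 TPM in the GC pools and 120 TPM in the naive pools. Xbp1 did not hold most of the difference in that sum between the populations. Of the 4, 3 were lower in GC B cells and 1, Prdm1, was higher (means of 5.01 and 0.955 TPM). The part of cell cycle state or of these other cells in the differences below was not tested.

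The populations were set against each other in limma, on log2(TPM + 1) and with Benjamini-Hochberg adjustment over all 12785 genes that had at least 1 TPM in at least 3 pools. All 10 genes passed that filter and an adjusted p of 0.05: 9 were higher in GC B cells and 1, Smug1, was lower. The background was high, since 65.6% of all genes tested were called, 35.5% higher and 30.1% lower in GC B cells. The values of the 3 GC and 3 naive pools did not overlap for any of the 10 genes, and neither did they for 70.7% of all genes tested. The median log2 fold change (GC minus naive) was 0.89 for the 10 genes and 0.03 for all genes tested.

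**Figure D1:**
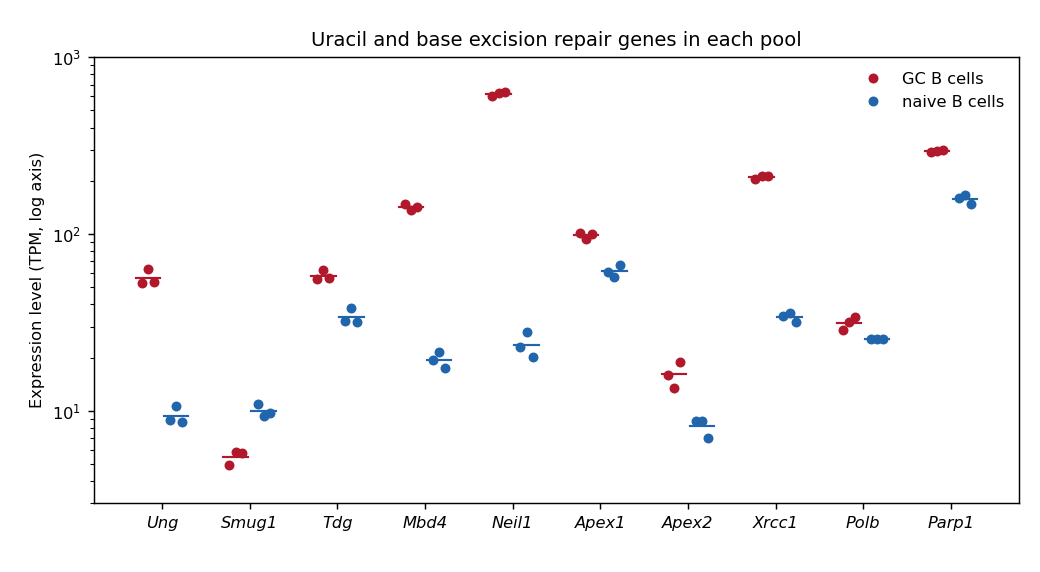
Expression level in TPM (log axis) of each of the 10 genes in the 3 GC (red) and 3 naive (blue) pools, where points are pools and lines are means. Neil1 was highest in GC B cells (606 to 638 TPM) and Smug1 was the only gene whose GC pools lay below its naive pools.

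The glycosylases that remove uracil directly did not move alike. Ung (ENSMUSG00000029591, chr5:114130366-114139321, GRCm38.p6) encodes the main uracil glycosylase, the enzyme that excises uracil at antibody genes. Its levels were 53.0, 63.6 and 53.5 TPM in GC replicates 1, 2 and 3 and 8.86, 10.6 and 8.61 TPM in naive replicates 1, 2 and 3. The lowest GC pool lay well above the highest naive pool. The mean rose 6.05-fold, from 9.37 ± 1.11 to 56.7 ± 6.01 TPM (SD, n = 3 pools each), with a log2 fold change of 2.48 ± 0.112 (SE; limma, adjusted p = 4.77e-06). Ung is transcribed from alternative starts into a nuclear and a mitochondrial form, and these values per gene sum both.

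Smug1 (ENSMUSG00000036061, chr15:103153290-103168939) encodes a glycosylase that also removes uracil and can act beside Ung. It went the other way, with 4.93, 5.85 and 5.76 TPM in GC B cells and 10.9, 9.39 and 9.71 TPM in naive B cells. Its log2 fold change was -0.76 ± 0.109 (SE; limma, adjusted p = 0.000989), and naive B cells had 1.82-fold more than GC B cells. Smug1 rested on the fewest reads of the 10 genes over all pools, an estimated 120 to 337 per pool. In the naive pools Ung rested on fewer reads than Smug1, an estimated 127 to 245. In naive B cells the pools of Ung and Smug1 overlapped, whereas in GC B cells Ung exceeded Smug1 in every pool. The ratio of Ung to Smug1 TPM was 10.7, 10.9 and 9.29 in the GC pools and 0.809, 1.13 and 0.887 in the naive pools.

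Tdg and Mbd4 encode glycosylases that remove uracil or thymine paired with guanine, the mispairs that deamination of cytosine or of methylated cytosine leaves. Tdg (ENSMUSG00000034674, chr10:82629814-82650799) was at 55.9, 62.3 and 56.2 TPM in GC B cells and at 32.1, 38.1 and 31.8 TPM in naive B cells. Its mean was 1.71-fold higher in GC B cells, with a log2 fold change of 0.76 ± 0.0895 (SE; limma, adjusted p = 0.000392). Tdg has near-identical copies of 508 to 3026 bp elsewhere in the genome, at 98.6 to 99.6% identity, of which 2 are listed as genes with means of 0 to 0.122 TPM, so its value depends on how reads were divided among them. Mbd4 (ENSMUSG00000030322, chr6:115840697-115853400) changed more. It was at 148, 136 and 143 TPM in GC B cells and at 19.4, 21.4 and 17.6 TPM in naive B cells, a 7.32-fold higher mean with a log2 fold change of 2.81 ± 0.0808 (SE; limma, adjusted p = 7.34e-07). The ratio of Mbd4 to Tdg TPM was 2.46 ± 0.243 in GC B cells and 0.573 ± 0.0270 in naive B cells (SD, n = 3), so that the order of the pair turned around.

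The make-up of the 4 glycosylases that act on uracil was therefore described within each pool, which does not depend on scaling between pools. Summed over Ung, Smug1, Tdg and Mbd4, GC B cells had 263 ± 4.97 TPM and naive B cells 72.8 ± 6.08 TPM (SD, n = 3). Ung made up 20.2, 23.7 and 20.7% of this sum in GC replicates 1, 2 and 3 and 12.4, 13.4 and 12.7% in naive replicates 1, 2 and 3. Mbd4 held the largest share in GC B cells with 54.2 ± 3.02%, against 26.7 ± 0.629% in naive B cells. Tdg held the largest share in naive B cells with 46.6 ± 1.46%, against 21.3 to 23.2% in the GC pools. Smug1 went from 13.8 ± 1.83% in naive B cells to 2.10 ± 0.189% in GC B cells. For each of the 4 shares the GC and naive pools did not overlap, and no test was made on them.

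**Figure D2:**
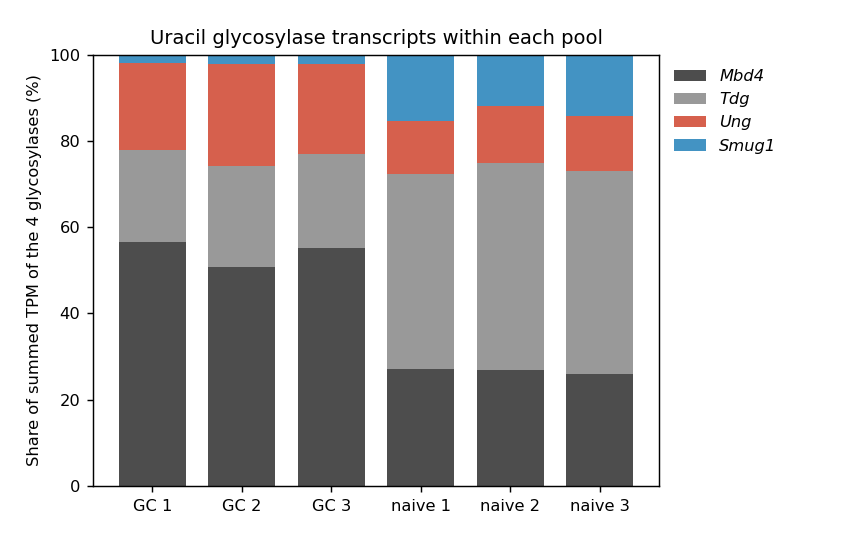
Share of the summed TPM of Ung, Smug1, Tdg and Mbd4 (percent, stacked) in each of the 6 pools. Mbd4 held 50.8 to 56.6% in the GC pools and Tdg 45.0 to 47.9% in the naive pools, and Smug1 narrowed from at least 11.8% in the naive pools to at most 2.23% in the GC pools.

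Neil1 (ENSMUSG00000032298, chr9:57142788-57148688) encodes a glycosylase best known for oxidized pyrimidines, which opens the site that it cuts. It had the largest log2 fold change of the 10 genes. It was at 606, 625 and 638 TPM in GC B cells and at 22.9, 27.9 and 20.3 TPM in naive B cells. The mean rose 26.3-fold and the log2 fold change was 4.67 ± 0.111 (SE; limma, adjusted p = 3.74e-07), above that of 99.1% of all genes tested. Of the summed TPM of all 10 genes, Neil1 alone held 40.5 ± 0.379% in GC B cells and 6.13 ± 0.745% in naive B cells. With Neil1 counted among the glycosylases, the share of Ung was 6.40 ± 0.632% in GC and 9.70 ± 0.265% in naive B cells, so the higher Ung share in GC B cells held only among the 4 glycosylases that act on uracil directly.

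Of 6 further glycosylases, which remove oxidized or alkylated bases, 5 were tested: 2 were higher in GC B cells and 3 did not pass the test. Of all genes tested, 65.6% were called and 35.5% were higher. Neil3, a relative of Neil1 that is found in dividing cells, was at 38.6, 36.0 and 39.2 TPM in GC B cells and at 0.675, 0.849 and 0.955 TPM in naive B cells, with a log2 fold change of 4.42 ± 0.101 (SE; limma, adjusted p = 3.44e-07). Being under 1 TPM in every naive pool, Neil3 entered the test only through its GC level. Neil2, the third of these relatives, did not reach 1 TPM in any pool and was not tested. Mpg, which removes alkylated bases, was slightly higher in GC B cells (log2 fold change 0.28 ± 0.0694, adjusted p = 0.0106), a call that was lost with quantile normalization (adjusted p = 0.0602) or with a correction for GC content and length (0.0502). The glycosylases for oxidized bases Ogg1, Mutyh and Nthl1 did not pass the test, with log2 fold changes of -0.12 (95% confidence interval -0.44 to 0.21), 0.23 (-0.12 to 0.59) and -0.23 (-0.83 to 0.36). These intervals do not contain a change of the size found for Ung or Mbd4. Nthl1 was low, at 1.37 to 3.51 TPM over the pools, and log2(TPM + 1) limits the fall that so low a gene can show. Mutyh passed the test as higher in GC B cells without GC replicate 3 (log2 fold change 0.38, adjusted p = 0.0331).

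The endonucleases that nick the abasic site changed less than Ung, Mbd4 or Neil1. Apex1 (ENSMUSG00000035960, chr14:50924949-50927188) encodes the main abasic site endonuclease of most cells. It was at 102, 93.7 and 100.3 TPM in GC B cells and at 61.0, 57.3 and 66.8 TPM in naive B cells, a 1.60-fold higher mean with a log2 fold change of 0.67 ± 0.0705 (SE; limma, adjusted p = 0.000233). In the annotation used here, 61.7% of its exonic bases overlap Tmem55b on the opposite strand, which had means of 88.5 TPM in GC B cells and 154 TPM in naive B cells. The counting is not stated to use strand, so reads of the overlap cannot be told apart. Apex2 (ENSMUSG00000025269, chromosome X) encodes a weaker endonuclease with strong 3′ end trimming activity. It was at 16.04, 13.5 and 19.0 TPM in GC B cells and at 8.82, 8.81 and 7.06 TPM in naive B cells, with a log2 fold change of 0.89 ± 0.148 (SE; limma, adjusted p = 0.00198). It had the largest SE of the 10 genes. Of the TPM of Apex1 and Apex2 together, Apex2 held 13.6, 12.6 and 15.9% in the GC pools and 12.6, 13.3 and 9.56% in the naive pools, and these shares overlapped.

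Downstream of the nick, the scaffold rose more than the polymerase. Xrcc1 (ENSMUSG00000051768, chr7:24546699-24573438) encodes the scaffold that holds the polymerase and ligase at the break. It was at 204, 212 and 213 TPM in GC B cells and at 34.5, 35.6 and 32.0 TPM in naive B cells, a 6.16-fold higher mean with a log2 fold change of 2.59 ± 0.0549 (SE; limma, adjusted p = 2.81e-07). Polb (ENSMUSG00000031536, chr8:22628119-22653464) encodes DNA polymerase beta, which fills the single base gap. It was at 28.7, 31.8 and 33.9 TPM in GC B cells and at 25.7, 25.6 and 25.6 TPM in naive B cells. The mean was 1.23-fold higher, and its log2 fold change of 0.28 ± 0.0757 (SE; limma, adjusted p = 0.0155) was the smallest of the 10 genes. This call was not stable: corrected for the genes' GC content and length, the log2 fold change was -0.034 (adjusted p = 0.686), and without GC replicate 3 it was 0.23 (adjusted p = 0.0523). The ratio of Xrcc1 to Polb TPM was 7.10, 6.69 and 6.27 in the GC pools and 1.34, 1.39 and 1.25 in the naive pools. Polb held 6.66 ± 0.285% of the TPM of all 10 genes in naive B cells and 2.05 ± 0.138% in GC B cells.

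Parp1 (ENSMUSG00000026496, chr1:180568891-180600999) encodes the poly(ADP-ribose) polymerase that senses the nick and brings in Xrcc1. It was at 292, 296 and 299 TPM in GC B cells and at 161, 167 and 149 TPM in naive B cells. The mean was 1.86-fold higher in GC B cells, with a log2 fold change of 0.90 ± 0.0514 (SE; limma, adjusted p = 1.41e-05). Parp1 was the highest of the 10 genes in naive B cells and was second to Neil1 in GC B cells.

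**Figure D3:**
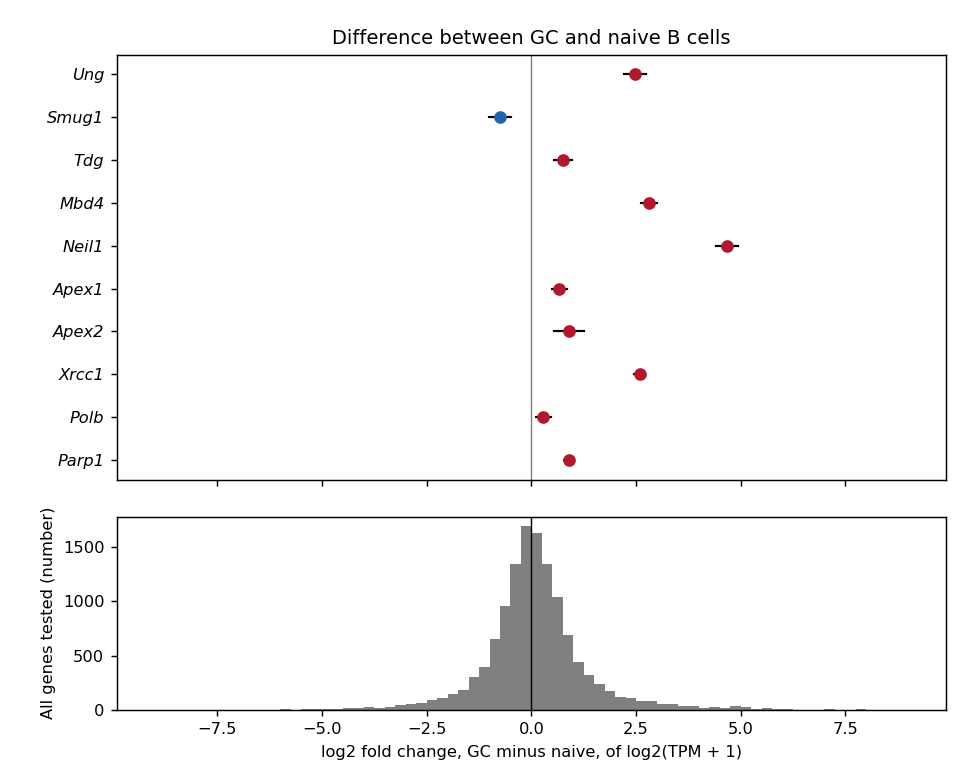
Upper panel, log2 fold change (GC minus naive, of log2(TPM + 1)) of each of the 10 genes with its 95% confidence interval, where red is higher and blue lower in GC B cells. Lower panel, number of all 12785 genes tested at each log2 fold change: Ung, Mbd4, Xrcc1 and Neil1 lay in the upper tail and the other genes in the body of the distribution.

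By size, the changes fell in a wide range. Neil1, Mbd4, Xrcc1 and Ung lay above 99.1, 96.8, 96.3 and 96.0% of all genes tested. Parp1, Apex2, Tdg and Apex1 lay above 83.1, 83.1, 80.1 and 77.4%, and Polb above 62.7%. Smug1 lay above 16.8%. The order of levels in GC B cells was Neil1, Parp1, Xrcc1, Mbd4, Apex1, Tdg, Ung, Polb, Apex2 and Smug1, and among neighbours in this order only Tdg and Ung overlapped. In naive B cells it was Parp1, Apex1, Xrcc1, Tdg, Polb, Neil1, Mbd4, Smug1, Ung and Apex2. There, Xrcc1 overlapped Tdg, Neil1 overlapped both Polb and Mbd4, and Ung overlapped both Smug1 and Apex2. Summed over the 10 genes, the level was 1537 ± 25.3 TPM in GC B cells and 385 ± 16.7 TPM in naive B cells (SD, n = 3).

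The genes whose values were most like those of Ung over the 6 pools were Orc6, Rcc1 and Tipin, with root mean square distances of 0.0820, 0.0828 and 0.0884 between log2 values centered on each gene's mean. Orc6, a subunit of the origin recognition complex, was at 53.2, 56.8 and 53.1 TPM in GC B cells and at 9.21, 9.46 and 8.60 TPM in naive B cells. Of the other 9 repair genes, Xrcc1 was nearest to Ung (eighth in this order, distance 0.111) and Mbd4 followed at place 130 (distance 0.208). The 6 pools fall into only 2 populations, so this likeness is mostly that of the size of the change.

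Promoters were inspected in RefSeq windows of GRCm38.p6, from 250 bases before to 50 bases after the start, which were given for 8 of the 10 genes, not for Apex2 and Polb. None of the 8 windows held an E2F word (TTTCCCGC, TTTCGCGC, TTTGCCGC or TTTGGCGC, on either strand), which 2.3% of all 32851 windows held. The CCAAT box (CCAAT) was in 5 of the 8 windows and in 37.4% of all windows, and the GC box (GGGCGG) was in 5 of the 8 and in 35.7% of all. Both sets of 5 held Mbd4, with a log2 fold change of 2.81, and Smug1, with -0.76. The E-box CACGTG was in the windows of Tdg, Apex1 and Parp1, 3 of the 8, and in 7.2% of all windows. These 3 genes had log2 fold changes of 0.67 to 0.90. Those of Ung, Mbd4, Xrcc1 and Neil1 were higher and that of Smug1 was -0.76, and the windows of these 5 held no such E-box. Apex2, with 0.89, had no window, and a link of the E-box to the changes was not tested. The sequences of Tdg, Apex1 and Parp1 on the plus strand are shown because they hold the E-box. Capitals mark the E-box, CCAAT box (ATTGG on the other strand) and GC box (CCGCCC on the other strand). Tdg is given at chr10:82629714-82629823, which ends 10 bases past the outermost RefSeq start, Apex1 at chr14:50924894-50924948, between the neighbouring gene and its own start, and Parp1 at chr1:180568791-180568890.
Tdg: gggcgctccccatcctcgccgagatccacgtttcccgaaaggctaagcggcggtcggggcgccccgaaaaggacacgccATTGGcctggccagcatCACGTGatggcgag
Apex1: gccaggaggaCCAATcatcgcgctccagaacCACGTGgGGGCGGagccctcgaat
Parp1: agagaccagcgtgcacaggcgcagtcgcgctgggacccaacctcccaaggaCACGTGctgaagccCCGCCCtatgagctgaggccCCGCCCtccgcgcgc
A match is a run of letters in these windows and not a measured binding site.

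The rest of the pathway was described with 28 further BER genes, of which 27 were tested. Of these, 17 were higher and 3 were lower in GC B cells and 7 did not pass the test, with a median log2 fold change of 0.55. The 20 called of 27 stand against the 65.6% called of all genes tested. Of all genes tested, 35.5% were higher and 30.1% were lower in GC B cells. The counts by role below stand against the same shares.

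Of 10 genes of gap filling and ligation, 8 were higher in GC B cells and 2 did not pass the test. Of all genes tested, 35.5% were higher. Lig1, the replicative DNA ligase that also seals long patches, was at 189, 199 and 209 TPM in GC B cells and at 16.6 to 17.9 TPM in naive B cells, with a log2 fold change of 3.46 ± 0.0588 (SE; limma, adjusted p = 1.59e-07). Lig3, the ligase that works with Xrcc1, was at 17.5, 14.8 and 12.3 TPM in GC B cells and at 15.6, 16.5 and 14.3 TPM in naive B cells, and its pools overlapped (log2 fold change -0.07, 95% confidence interval -0.39 to 0.26, adjusted p = 0.689). The interval of Xrcc1 was 2.46 to 2.72, and those of its partners Polb and Lig3 ended at 0.47 and 0.26. Of the enzymes of long patch repair, Pole, the catalytic subunit of polymerase epsilon, had a log2 fold change of 3.28, Pcna, the sliding clamp, of 2.41, and Fen1, the flap endonuclease, of 2.34. The genes of polymerase delta in the same list rose less. Named after their values were seen, Pold1, Pold2, Pold3 and Pold4 had log2 fold changes of 0.55, 0.76, 0.76 and 0.31. Poll, a polymerase that can stand in for Polb, was at 13.7 to 14.7 TPM in GC B cells and at 13.6 to 14.7 TPM in naive B cells (log2 fold change 0.01, 95% confidence interval -0.17 to 0.19).

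Of the 4 end processing genes 2 were higher and 2 were lower in GC B cells. Tdp1, which frees 3′ ends from bound proteins and other blocks, was at 71.2 ± 2.90 TPM in GC B cells and 19.9 ± 1.13 TPM in naive B cells (log2 fold change 1.79). Of the 4 poly(ADP-ribose) genes 2 were higher, 1 was lower and 1 did not pass the test. Parg, named after its values were seen, was 1 of the 2 higher genes (log2 fold change 0.29). Its call was lost in several alternatives, such as median-ratio scaling (limma, adjusted p = 0.0635). Hpf1, the cofactor that directs Parp1 to serine residues, was at 248, 238 and 252 TPM in GC B cells and at 44.9, 43.7 and 45.4 TPM in naive B cells (log2 fold change 2.44 ± 0.0444, adjusted p = 1.91e-07), while Parp2, the close relative of Parp1, was at 50.2 ± 1.09 and 50.4 ± 3.59 TPM (adjusted p = 0.966). Parp2 passed the test as lower in GC B cells with the correction for GC content and length (log2 fold change -0.27, adjusted p = 0.00407). Among the BER genes that were lower in GC B cells, and named after their values were seen, were Aptx, which cleans DNA ends, and Parp3, with log2 fold changes of -0.44 and -0.25. The call on Parp3 was lost without GC replicate 1 (adjusted p = 0.0582) or GC replicate 3 (adjusted p = 0.0618).

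Of 4 genes that clean the nucleotide pool or shield abasic sites, 3 were higher in GC B cells and 1 did not pass the test. Dut, which destroys dUTP and so keeps uracil out of new DNA, was at 256, 265 and 255 TPM in GC B cells and at 23.8, 24.3 and 22.2 TPM in naive B cells, with a log2 fold change of 3.41 ± 0.0513 (SE; limma, adjusted p = 1.13e-07). Hmces, which forms a crosslink with abasic sites in single-stranded DNA and shields them, was at 559, 556 and 549 TPM in GC B cells and at 36.9, 43.5 and 35.1 TPM in naive B cells, with a log2 fold change of 3.82 ± 0.0807 (SE; limma, adjusted p = 2.81e-07). In GC B cells Hmces stood near Neil1, and the GC pools of the pair did not overlap. Dctpp1, which removes abnormal cytosine nucleotides, had a log2 fold change of 1.78 ± 0.0802 (SE). Samhd1, which lowers all deoxynucleotide pools, was at 284 to 299 TPM in GC B cells and at 254 to 315 TPM in naive B cells and did not pass the test (log2 fold change 0.02, 95% confidence interval -0.17 to 0.22).

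**Figure D4:**
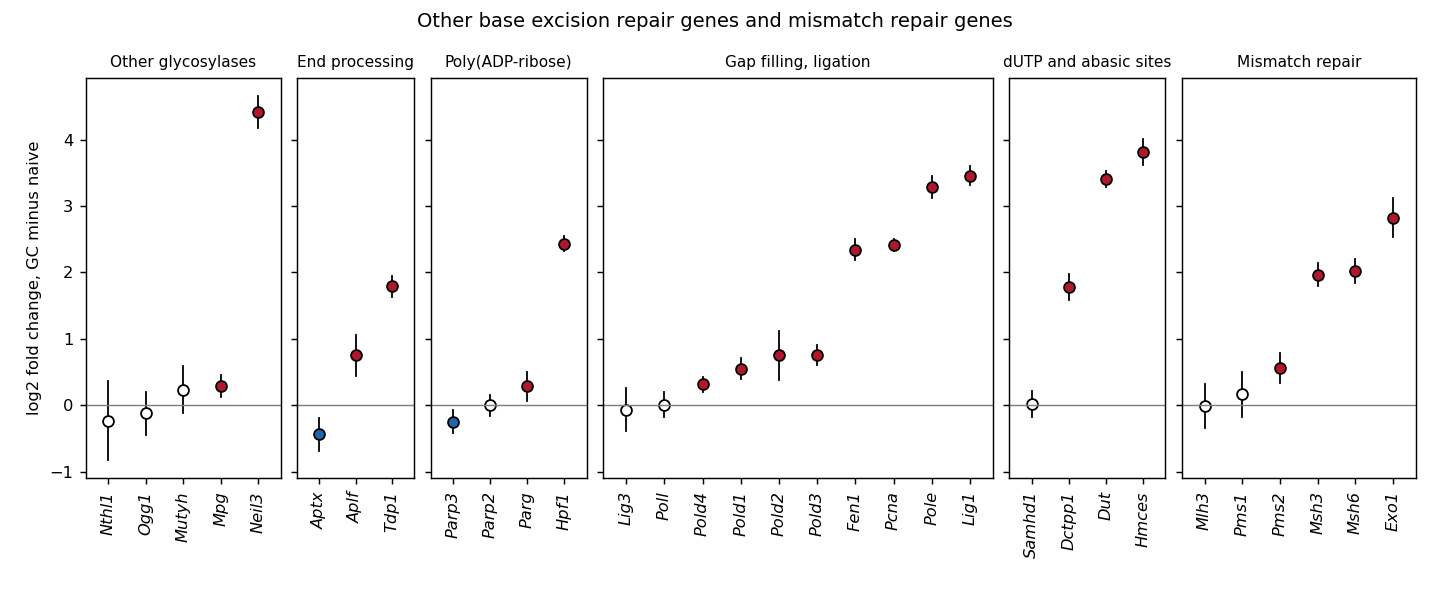
Log2 fold change (GC minus naive) of further BER genes, by role, and of MMR genes, with 95% confidence intervals. Red is higher and blue lower in GC B cells, and open circles did not pass the test. Genes near 0 stood beside genes above 2, such as Lig3 beside Lig1 and Parp2 beside Hpf1.

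MMR, the pathway that competes for the same lesion, was set beside BER. Of 8 MMR genes tested, 5 were higher in GC B cells, 0 were lower and 3 did not pass the limma test, with a median log2 fold change of 1.04. Among all genes tested 65.6% were called and 35.5% were higher, so the share of MMR genes called was near the background. Named after their values were seen, Msh3 and Msh6, which help to bind the mismatch, had log2 fold changes of 1.97 and 2.02, and Pms2 had 0.56. The highest log2 fold change was that of the exonuclease Exo1 with 2.83, which, like Neil3, was under 1 TPM in every naive pool and so entered the test through its GC level, and the lowest that of Mlh3 with -0.02. No test was made between the pathways.

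**Figure D5:**
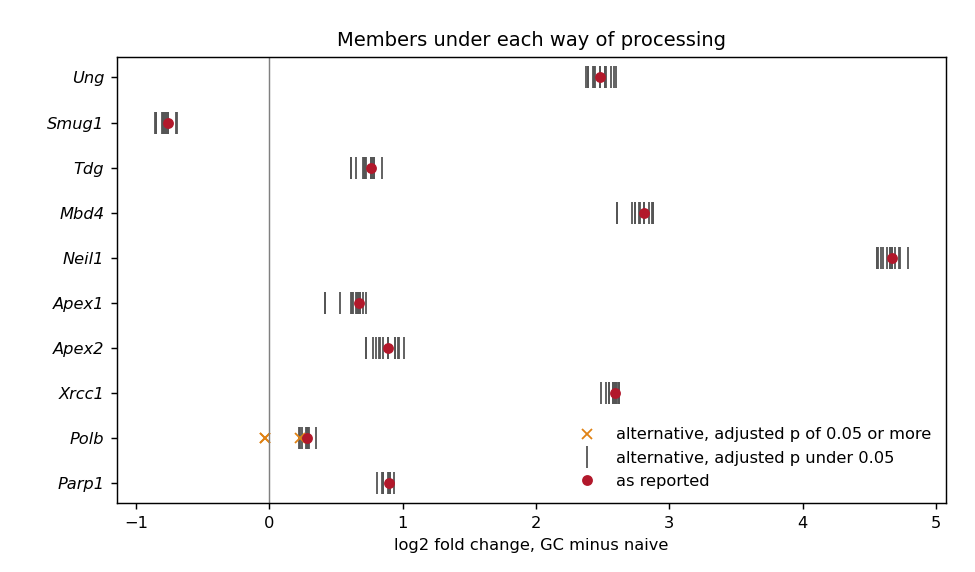
Log2 fold change (GC minus naive) of each of the 10 genes as reported (red points) and under 17 other ways of processing the same pools (gray bars, adjusted p under 0.05, and orange crosses, 0.05 or more). Only Polb has crosses, at -0.034 and at 0.23, and the bars of the other 9 genes stay on 1 side of 0.

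For 9 of the 10 genes the direction and the call held under every alternative. The sizes of the changes of Ung, Mbd4, Neil1 and Xrcc1 were little affected by processing. Smaller changes varied more relative to their size, with Tdg between 0.62 and 0.84 and Apex2 between 0.72 and 1.01. Alternatives that changed only the filter on low values or the test model could not alter a log2 fold change. The ranges below therefore come from the other alternatives. Under 17 alternatives the log2 fold change of Ung lay between 2.38 and 2.60, that of Mbd4 between 2.61 and 2.88, that of Neil1 between 4.56 and 4.79 and that of Xrcc1 between 2.48 and 2.63. Smug1 stayed between -0.86 and -0.69. Apex1 had the widest relative range of these 9 genes, from 0.41, with the correction for GC content and length, to 0.73.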

How the data were processed

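RNA-Seq values of 6 pools (3 GC, 3 naive) were analyzed. The authors removed adapters with cutadapt 1.9, used RSEM 1.2.25 (fragment length mean 180, SD 50) to align and quantify reads against transcripts of NCBIm38 v75, and deposited FPKM per gene and pool. The submitters' processing notes also name CASAVA 1.8, FastQC and edgeR, the last with no stated role. A further normalization between pools is not given in the sources used here. The length RSEM gives a transcript enters each FPKM.

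TPM was FPKM divided by the pool total, times 1000000. limma 3.58.1 (R 4.3.3; lmFit, eBayes with a trend) was run on log2(TPM + 1), a scale that understates changes of low genes, for genes that reached 1 TPM in 3 or more pools. The adjusted p (Benjamini-Hochberg, 0.05, two-sided) covered all genes tested. Values being FPKM, no count test was made: 66.7 to 70.8% of low values lay within 0.15 of a whole read, so depths of 9700000 to 16100000 reads are approximate. Symbols (33398 of 39179 identifiers), exon overlaps and copies (at least 95% identity over 200 bp) came from the annotation and genome of NCBIM37, and positions and promoters from RefSeq (GRCm38.p6). Other steps used Python 3.11.15.

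Members, lists, markers and promoter motifs were chosen with earlier results of these data known. Named by plan were all 10 members, all other glycosylases, and other BER genes that were called with a log2 fold change of at least 1 in size or not called. The highest and lowest MMR genes, Fas and the 3 genes most like Ung were also named by plan. Aptx, Parg, Parp3, the Pold genes, other MMR genes and some markers were named after their values were seen. Protein sequences were not analysed here, and some genes of the lists and markers are counted but not reported here by name. Alternatives were other pseudocounts, filters, scalings and models, and leaving out each pool.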

Additional observations from a re-analysis of the deposited data

How the results depend on the processing

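Of 229 values recomputed under alternatives, 224 were labeled as the same. For a gene this meant the same direction and the same side of the threshold. For a count it meant staying within 1.5 times, and for the Ung share moving by less than its SD. Filter, trend and block settings could not alter the log2 fold change of a gene. Leaving out 1 of 3 pools could not move the Ung share by its SD. The 224 include such values. Polb turned to a log2 fold change of -0.034 (adjusted p = 0.686) with the correction for GC content and length and to -0.034 (0.689) with the correction and the replicate block. The values that this correction needs were given for 86.3% of the genes tested. Over those genes the median with the correction was -0.08, and Polb still lay above it. The median of 0.03 without the correction covers all genes tested, so the shift may not be that of the correction alone. Without GC replicate 3, Polb was at 0.23 (adjusted p = 0.0523), the only call on the 10 genes lost by leaving out a pool; 9 to 10 were called over these 6 fits, with 17 to 20 of the other BER genes and 7095 to 7740 of all genes. Adding Neil1 to the sum changed the Ung share to 6.40% in GC and 9.70% in naive B cells. The causes were not tested.

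The labels give no pairing of GC and naive pools, so the numbers were not taken as pairs. Same-numbered pools did not deviate together (correlations of 0.083, 0.022 and 0.046), which cannot show whether they came from the same mice. With the replicate block 7960 of all genes were called, against 8392, and all 10 repair genes kept their call. Of the other BER and MMR genes, Parg, Mpg, Parp2, Parp3, Mutyh and Pms1 changed sides of the threshold in at least 1 alternative. Depth limits Smug1, with an estimated 120 reads in its lowest pool, Ung in naive B cells, with an estimated 127 in its lowest pool, and Neil2, which was under 1 TPM in all pools.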
